A study of Homo sapiens with 12 samples.

Results

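The genes described here move cholesterol out of the cell, between its membranes and out of the lysosome, or sense it through the liver X receptors (LXR). They are ABCA1, ABCG1, NR1H2, NR1H3, MYLIP, GRAMD1A, GRAMD1B, NPC1, NPC2 and APOE, and were chosen by name. All 10 were found by symbol among the 29696 genes of the expression table. They were followed in A375, a human melanoma cell line, after lentiviral infection with a hairpin against ALKBH5, a demethylase of N6-methyladenosine (m6A) in mRNA (shALKBH5), or with a control hairpin (shCtrl, called Scramble in the methods). The labels give shCtrl cells as wild type and name no further treatment, and the cells for RNA-Seq were harvested 48 h post-infection. Each group had 3 input libraries, sequenced before immunoprecipitation, and 3 libraries made with an m6A antibody (IP). Which hairpin the sequenced cells carried is not given in the sources used here. The methods speak of independent repeats of experiments in general, but nothing says of these libraries that they came from separate cultures, so p-values may cover only technical spread between them. The study picked ABCA1 out of these same libraries, so its direction is not independent evidence. Positions are those of the deposited tables, which overlap the RefSeq GRCh38.p14 positions of all 10 genes although the labels list a mouse build.

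Oxysterols activate LXR, which binds DNA together with a retinoid X receptor and switches on genes that lower cell cholesterol. ABCA1 and ABCG1 hand cholesterol to lipoprotein particles, APOE is a protein of such particles, and MYLIP marks lipoprotein receptors for degradation. Cholesterol from endocytosed lipoproteins leaves the lysosome through NPC2 and NPC1 and is carried from the plasma membrane to the endoplasmic reticulum by the GRAMD1 (Aster) proteins.

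ALKBH5 was at 3.39, 3.92 and 3.12 FPKM (fragments per kilobase of transcript, scaled to the mapped fragments of the library) in shALKBH5 and at 19.3, 17.8 and 17.6 FPKM in shCtrl cells. The deposited FPKM summed to between 212760 and 223231 per library, and read depth is unknown because the table holds no counts. Of the melanocyte lineage genes, SOX10 was at 181 FPKM in shALKBH5 and 184 FPKM in shCtrl cells and S100B at 82.1 and 32.9 FPKM, MITF at 1.26 and 0.777 FPKM with overlapping groups, while PMEL, at 0.611 and 0.237 FPKM with separate groups, and TYR, DCT and TYRP1, with overlapping ones, were below 1 FPKM in the group means. The 3 leukocyte markers with a row summed to between 0.240 and 0.332 FPKM in shALKBH5 and between 0.163 and 0.236 FPKM in shCtrl libraries, with CD14 at 0.168 and 0.111 FPKM, CSF1R at 0.125 and 0.0706 FPKM and CD163 at 0 and 0.0155 FPKM in the means, each with overlapping groups. The 3 keratinocyte markers with a row summed to 10.7 to 11.5 FPKM in shALKBH5 and 8.90 to 9.53 FPKM in shCtrl libraries, with KRT14 at 0.369 and 0.961 FPKM, KRT10 at 10.8 and 8.17 FPKM and TP63 at 0 in the shCtrl mean. The 4 endothelial markers summed to 3.75 to 4.24 and 2.33 to 2.64 FPKM, most of it KDR at 3.76 and 2.16 FPKM. The other 3 were lower in the shALKBH5 mean, with VWF at 0.222 and 0.301 FPKM and separate groups, PECAM1 at 0.0131 and 0.0252 FPKM and CDH5 at 0.0113 and 0.0173 FPKM with overlapping ones. The part of these markers in the results was not tested. These bulk values cannot tell fewer expressing cells from less RNA per cell.

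Of the 10 genes, 8 averaged 0.5 FPKM or more across the 6 input libraries and were tested with limma on log2(FPKM + 0.1). NR1H2, NR1H3, GRAMD1A, GRAMD1B, NPC1 and APOE rose in shALKBH5 cells, NPC2 fell, and MYLIP did not pass an adjusted p-value of 0.05. That is 7 called genes where 61.0% of all 12985 tested genes were called, 34.7% higher and 26.2% lower. With each library rescaled by its median ratio, 3769 of all tested genes were higher and 3913 lower, in place of 4509 and 3408, and among the members 6 were higher and 1 lower. ABCA1 and ABCG1 lay under the 0.5 FPKM filter and are given from a fit of all 29696 genes, in which 27.7% were called, 15.6% higher and 12.2% lower. In that fit ABCA1 was higher and ABCG1 lower, so that 7 of the 10 genes were higher and 2 lower. The groups did not overlap in 9 of the 10, against 39.7% of all listed and 67.0% of all tested genes. Fold changes on the log2(FPKM + 0.1) scale understate the change of low genes, and the median of all tested genes on it was 0.09. For a single gene, 3 libraries against 3 cannot reach a two-sided exact permutation p below 0.1, and each of the 9 separated genes stood at that p.

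**Figure D1:**
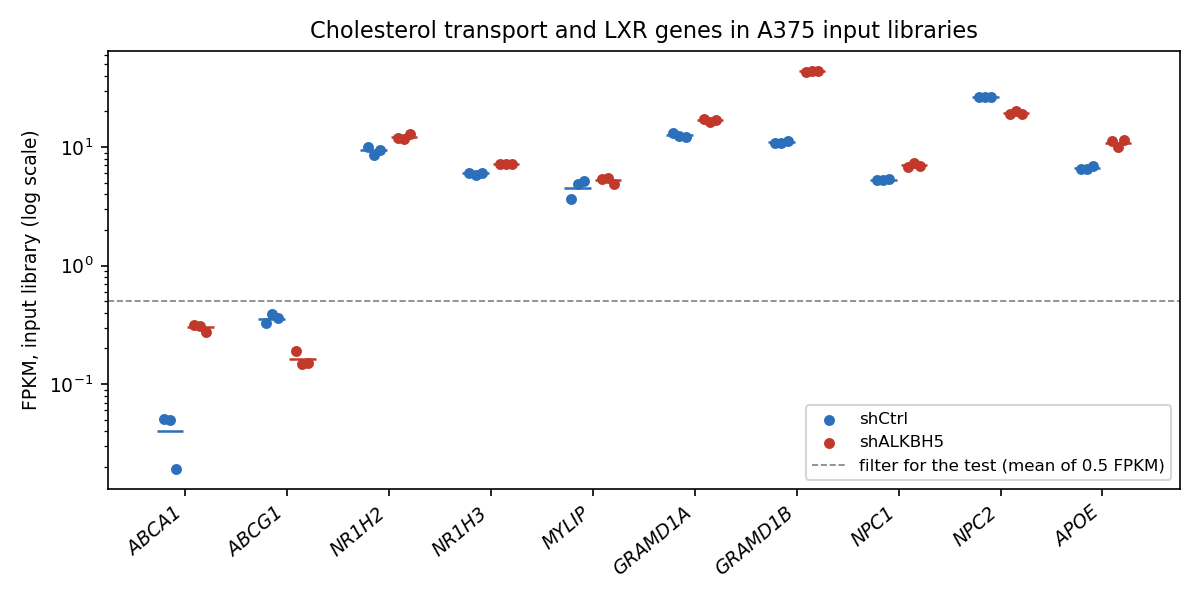
FPKM of each gene (log scale) in the 3 shCtrl (blue) and 3 shALKBH5 (red) input libraries, with bars at the group means and a dashed line at the 0.5 FPKM filter. GRAMD1B stood at 43.1 to 44.1 FPKM in shALKBH5 and 10.8 to 11.2 FPKM in shCtrl libraries, and ABCA1 and ABCG1 lay under the line in every library.

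ABCA1 (ENSG00000165029, chromosome 9, 104781006 to 104928155, minus strand) exports cholesterol and phospholipid to lipid-poor apolipoproteins. Its FPKM in the shCtrl replicates was 0.0510, 0.0497 and 0.0193, and in the shALKBH5 replicates 0.317, 0.309 and 0.277. Every shALKBH5 library was above every shCtrl library, and shCtrl replicate 3 was the lowest of all. The mean rose from 0.0400 ± 0.0179 to 0.301 ± 0.0211 FPKM (SD, n = 3 each), a 7.53-fold ratio of means, with a log2 fold change of 1.53 (standard error 0.171, limma without the filter, adjusted p = 0.001465). Its mean over the 6 libraries is at the 45.4th percentile of listed genes, and the size of the log2 change moved with the pseudocount, to 0.32 with 1 FPKM and 2.71 with 0.01 FPKM.

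ABCG1 (ENSG00000160179, chromosome 21, 42199689 to 42297244), which passes cholesterol to lipoproteins that already carry lipid, went the other way. It had 0.326, 0.387 and 0.360 FPKM in the shCtrl replicates and 0.189, 0.148 and 0.150 FPKM in the shALKBH5 replicates. All shALKBH5 values were below all shCtrl values, with means of 0.163 ± 0.0228 and 0.358 ± 0.0309 FPKM (SD, n = 3 each). The log2 fold change was -0.80 (standard error 0.169, limma without the filter, adjusted p = 0.01681), and its size was -0.22 with a pseudocount of 1 FPKM and -1.1 with 0.01 FPKM. The opposite moves exchanged the order of these transporters. Within a library, where scaling cancels, the ratio of ABCA1 to ABCG1 FPKM was 0.156, 0.128 and 0.0537 in shCtrl and 1.68, 2.08 and 1.85 in shALKBH5 cells.

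ABCA1 is a textbook LXR target, and its promoter window carries the kind of element that LXR binds, a pair of direct repeats spaced by 4 bases (DR4). A relaxed form, 2 copies of NGGTNA spaced by 4 bases, was searched on both strands in the RefSeq promoter windows (GRCh38.p14), which hold 15 windows for 8 of the 10 genes. It occurred in 0.624% of 35116 windows and, among the windows of these genes, in 1 of ABCA1, on the opposite strand and 69 bases before the start site. The stretch is shown because it is the single match, with the matched bases in capitals, read 5′ to 3′ on the strand of the gene (minus strand, chr9:104928202-104928231):
ABCA1: caggcttTGACCGATAGTAACCTctgcgct
The exact form, 2 copies of AGGTCA, was in 0.0199% of windows and in none of these genes. The E-box CACGTG was in 7.26% of windows and again in 1 of ABCA1, and a sterol regulatory half-element in 0.43% and in none of these genes. A match is only a stretch of letters, and LXR binding was not measured. ABCG1 and GRAMD1B have no entry in the promoter table.

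Both receptors rose by small amounts. NR1H2 (LXRβ, ENSG00000131408, chromosome 19, 50329653 to 50383388) was at 11.9, 11.7 and 13 FPKM in shALKBH5 and 10.1, 8.62 and 9.39 FPKM in shCtrl libraries. The groups were separate, with means of 12.2 ± 0.681 and 9.38 ± 0.744 FPKM (SD, n = 3 each), and the log2 fold change was 0.38 (standard error 0.0721, limma, adjusted p = 0.002806). NR1H3 (LXRα, ENSG00000025434, chromosome 11, 47248300 to 47269033) was at 7.20, 7.25 and 7.13 FPKM in shALKBH5 and 6.08, 5.86 and 6.04 FPKM in shCtrl libraries. Its log2 fold change of 0.26 (standard error 0.0485, limma, adjusted p = 0.002591) was the smallest among the called members. After rescaling by the median ratio the log2 fold change was 0.30 for NR1H2 and 0.18 for NR1H3 (limma, adjusted p = 0.01567 and 0.0253). The ratio of NR1H2 to NR1H3 overlapped between the groups, at 1.62 to 1.82 in shALKBH5 and 1.47 to 1.66 in shCtrl libraries.

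MYLIP (IDOL, ENSG00000007944, chromosome 6, 16129086 to 16148248), an LXR-induced ubiquitin ligase, was at 5.37, 5.44 and 4.90 FPKM in shALKBH5 and 3.64, 4.86 and 5.17 FPKM in shCtrl libraries. The ranges overlapped, since shCtrl replicate 3 exceeded shALKBH5 replicate 3. The log2 fold change was 0.21 (standard error 0.128, limma, adjusted p = 0.1931), and leaving out single libraries moved it between 0.06, without shCtrl replicate 1, and 0.31. It was 0.13 after rescaling by the median ratio. The lowest of its values was that of shCtrl replicate 1.

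The largest change among the tested members was that of GRAMD1B (Aster-B, ENSG00000023171, chromosome 11, 123358428 to 123627774). It was at 43.1, 44.1 and 43.8 FPKM in shALKBH5 and 10.8, 10.9 and 11.2 FPKM in shCtrl libraries. The replicates were tight and far apart between groups, with means of 43.7 ± 0.505 and 10.9 ± 0.216 FPKM (SD, n = 3 each). The ratio of means was 3.99-fold, with a log2 fold change of 1.99 (standard error 0.0383, limma, adjusted p = 1.63e-07), a rise that 0.685% of tested and 0.364% of all listed genes matched or exceeded with an adjusted p under 0.05. The related GRAMD1A (Aster-A, ENSG00000089351, chromosome 19, 34994784 to 35026471) was at 17.4, 16.2 and 17.0 FPKM in shALKBH5 and 13.2, 12.5 and 12.2 FPKM in shCtrl libraries. It rose by less, with a log2 fold change of 0.41 (standard error 0.0512, limma, adjusted p = 0.0003185). GRAMD1B was below GRAMD1A in every shCtrl library, at a ratio of 0.817 to 0.916, and above it in every shALKBH5 library, at 2.48 to 2.73.

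The lysosomal pair moved in opposite directions. NPC1 (ENSG00000141458, chromosome 18, 23506184 to 23586506, minus strand), the membrane protein that takes over cholesterol from NPC2, was at 6.78, 7.31 and 6.96 FPKM in shALKBH5 and 5.27, 5.28 and 5.4 FPKM in shCtrl libraries. The groups were separate, and the log2 fold change was 0.39 (standard error 0.0537, limma, adjusted p = 0.0005402). NPC2 (ENSG00000119655, chromosome 14, 74476192 to 74494177, minus strand), the soluble sterol-binding protein, was at 19.0, 20.2 and 18.9 FPKM in shALKBH5 and 26.6, 26.4 and 26.6 FPKM in shCtrl libraries. It was the sole tested member that fell, by 0.45 on the log2 scale (standard error 0.0423, limma, adjusted p = 7.718e-05). The ratio of NPC2 to NPC1 was 4.93 to 5.04 in shCtrl and 2.72 to 2.80 in shALKBH5 libraries. Whether counting used strand is not stated, and 6 of the 10 genes overlap an annotated gene on the opposite strand, so reads of such partners cannot be told apart here. The partners above 1 FPKM in both groups were RMC1, over 25639 bp of NPC1 (4.99 FPKM in shALKBH5 and 6.0 FPKM in shCtrl cells), ACP2, over 607 bp of NR1H3 (26.7 and 24.2 FPKM), and ISCA2, over 422 bp of NPC2 (3.22 and 3.74 FPKM). ACP2 and ISCA2 thus differed in the direction of their member and RMC1 in the opposite one. The overlaps in ABCA1 and GRAMD1B were with genes below 1 FPKM.

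APOE (ENSG00000130203, chromosome 19, 44905791 to 44909393), an apolipoprotein and LXR target, was at 11.1, 10.1 and 11.6 FPKM in shALKBH5 and 6.50, 6.57 and 6.89 FPKM in shCtrl libraries. Every shALKBH5 library exceeded every shCtrl library, with means of 10.9 ± 0.760 and 6.65 ± 0.203 FPKM (SD, n = 3 each). The log2 fold change was 0.71 (standard error 0.0641, limma, adjusted p = 6.771e-05), the second largest among the tested members.

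**Figure D2:**
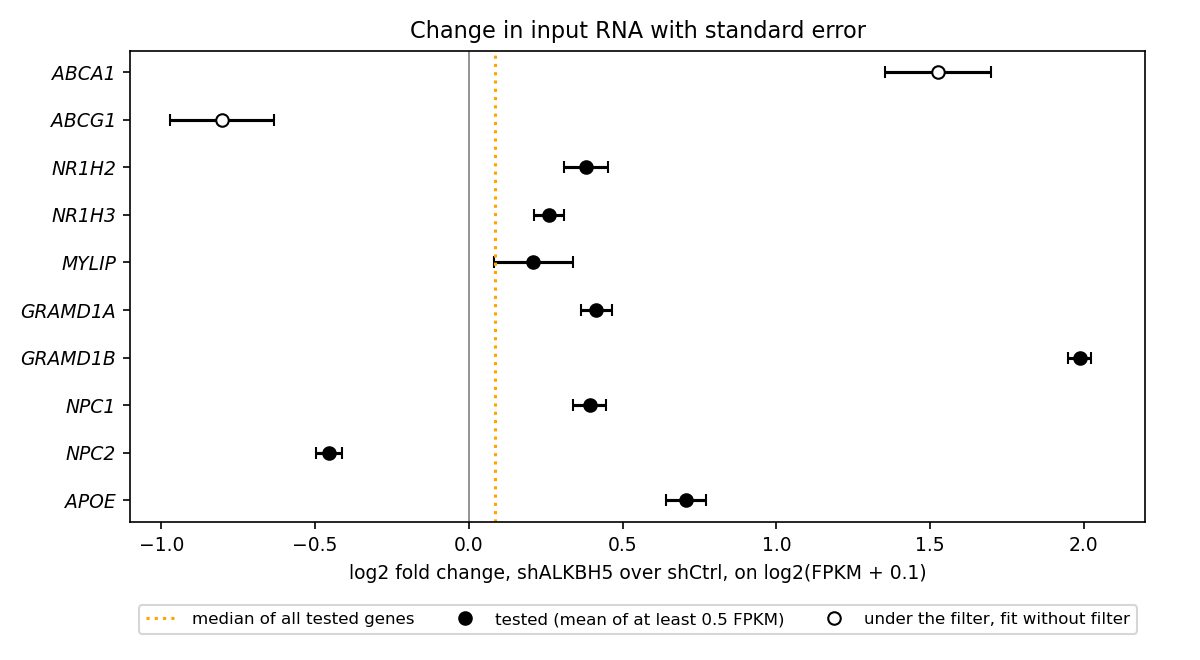
Log2 fold change of each gene, shALKBH5 over shCtrl, on the log2(FPKM + 0.1) scale, with bars of 1 standard error. Filled points passed the 0.5 FPKM filter, open points are from the fit without it, and the dotted line is the median of all tested genes at 0.09. GRAMD1B at 1.99 and ABCA1 at 1.53 lie farthest to the right, and ABCG1 at -0.80 and NPC2 at -0.45 to the left of zero.

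By level, the order in shCtrl cells from high to low was NPC2, GRAMD1A, GRAMD1B, NR1H2, APOE, NR1H3, NPC1, MYLIP, ABCG1 and ABCA1, with no overlap between the ranges of neighbours. In shALKBH5 cells GRAMD1B moved from rank 3 to rank 1, and ABCA1 passed ABCG1. NR1H3 and NPC1 were the single neighbours whose ranges overlapped there, at 7.13 to 7.25 and 6.78 to 7.31 FPKM. FPKM is scaled by transcript length, so these levels can be set side by side within a library.

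The m6A data consist of a single peak list for each group. Without values for the separate libraries, no peak could be checked against replicates, and none was tested. The shALKBH5 list had 28 peaks in all 10 genes and the shCtrl list 27 peaks in 9 genes, NPC2 being the one without. By the authors' annotation 14 and 13 of these lay in the 3'UTR, or 50.0% and 48.1%, beside 45.5% and 46.2% of all peaks. A false discovery rate (FDR) under 0.05 was given to 22 and 23 of them, beside 85.4% and 86.5% of all peaks. The fold enrichment of IP over input had a median of 3.37 in the shALKBH5 and 3.83 in the shCtrl peaks of these genes, lower than the 5.31 and 5.25 over all peaks. Peak spans can include introns, and 3 peaks in each list were longer than 5 kb.

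**Figure D3:**
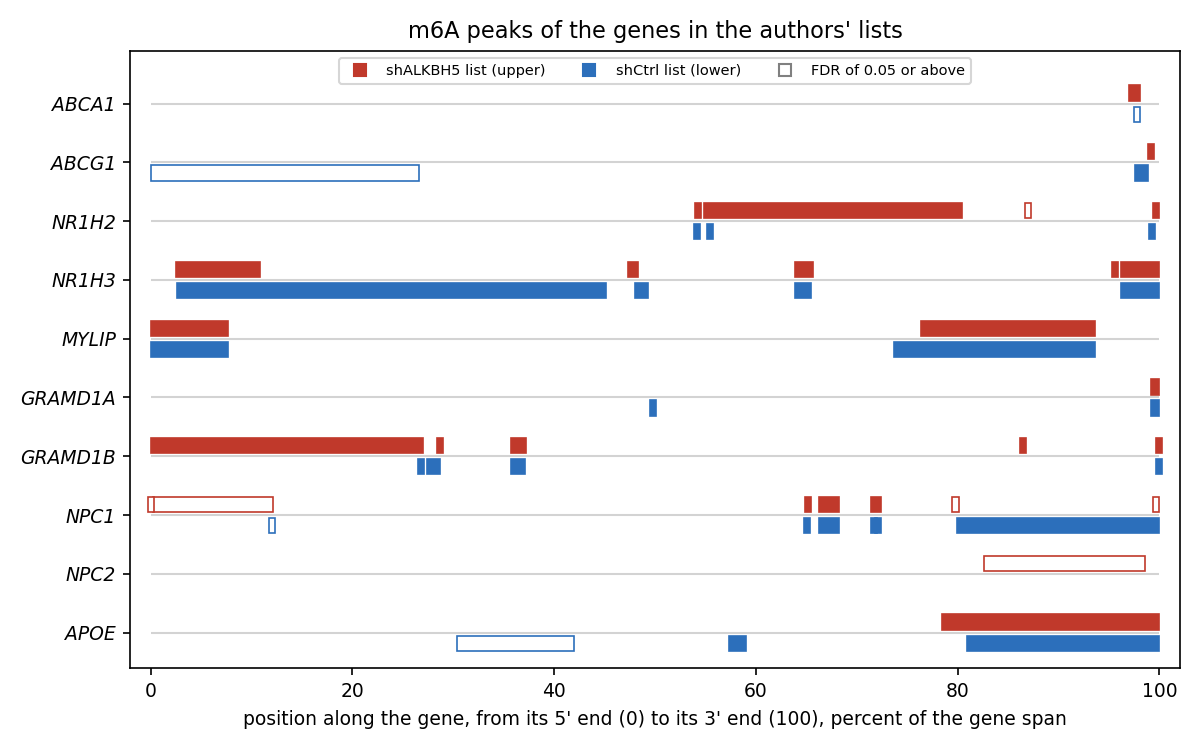
Position of every m6A peak along each gene, from the 5' end at 0 to the 3' end at 100 percent of the gene span, with the shALKBH5 list above and the shCtrl list below each line. Open boxes have an FDR of 0.05 or above. The ABCA1 peaks lie close to the 3' end, with the shCtrl peak open, and NPC2 has a peak, drawn open, in the shALKBH5 list alone.

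ABCA1 had 1 peak in each list, both in the 3'UTR. The shALKBH5 peak (chromosome 9, 104783852 to 104785511) began 2846 bp and ended 4505 bp upstream of the gene's 3' end and covered the whole shorter shCtrl peak, which spans 3205 to 3385 bp on the same count. The fold enrichment was 9.94 (log10 FDR -15.3) in the shALKBH5 and 5.11 (log10 FDR -1.25, which is above 0.05) in the shCtrl list. The shCtrl peak rests on a transcript at 0.0400 FPKM in the input, and the part of this low level in the peak's length and FDR was not tested. ABCG1 had a 3'UTR peak in shALKBH5 cells (42296319 to 42296617, fold enrichment 6.12, log10 FDR -5.73). In shCtrl cells its peaks were annotated as exonic, just upstream (42294851 to 42296169, fold enrichment 4.68, log10 FDR -1.49) and in the 5'UTR (log10 FDR -0.627). No ABCG1 peak overlapped between the lists.

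MYLIP carried the strongest enrichment of these genes. Its 5'UTR peak (16129086 to 16130561, the same ends in both lists) had a fold enrichment of 63.7 in shALKBH5 and 84.3 in shCtrl cells, above 99.6% and 99.7% of all peaks in the respective list. Its 3'UTR peak had 9.82 and 9.53. NR1H3 had its strongest peak in the 3'UTR, again with the same ends in both lists (47268243 to 47269033), at 6.94 and 8.48. The NR1H2 3'UTR peaks (fold enrichment 3.83 and 3.47) met in a single base, so they cover neighbouring stretches.

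GRAMD1B, the gene with the largest expression change among those tested, had 5 peaks in shALKBH5 and 4 in shCtrl cells, all with an FDR under 0.05. Its most enriched peak, in the 5'UTR, had a fold enrichment of 3.64 in shALKBH5 and 4.77 in shCtrl cells, where it was listed over a much shorter stretch. Near its 3' end the fold enrichment was 1.80 in shALKBH5 and 1.71 in shCtrl cells, and at the internal 5'UTR peak (123454620 to 123458551 in shALKBH5 cells) 3.03 and 2.84. The added shALKBH5 peak was short and weak (123591297 to 123591447, fold enrichment 1.92, log10 FDR -1.77). GRAMD1A shared its peak at the 3' end (fold enrichment 2.25 and 2.37), and a further 61 bp peak (35010539 to 35010599, fold enrichment 2.35) was listed for shCtrl cells.

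NPC1 had the most peaks, 7 in shALKBH5 and 6 in shCtrl cells. Its 3'UTR peak with the highest significance had identical ends in both lists (23531715 to 23533321) and fold enrichments of 2.32 and 2.56. An intronic peak ending at 23534399 had 13.5 in shALKBH5 and 26.8 in shCtrl cells. NPC2 had 1 peak, in shALKBH5 cells, with a fold enrichment of 8.57 and a log10 FDR of -0.847, so that neither list gave it a peak with an FDR under 0.05. APOE shared a 3'UTR peak at its 3' end, with a fold enrichment of 3.36 in shALKBH5 and 4.14 in shCtrl cells.

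Of the shALKBH5 peaks of these genes, 21 of 28 shared 1 bp or more with a shCtrl peak of the same strand, or 75.0% (95% Wilson interval 56.6 to 87.3%), beside 78.1% of all shALKBH5 peaks. Of the shCtrl peaks 22 of 27 did so, or 81.5% (63.3 to 91.8%), beside 81.3% of all. The intervals cover counting error only and treat peaks of the same gene as independent. When both peaks had to overlap by 50%, 11 peaks of each list were left, or 39.3% of the shALKBH5 and 40.7% of the shCtrl peaks, beside 51.6% and 53.7% of all peaks. In 20 cases from 8 genes, a peak overlapped no more than 1 peak of the other list and could be matched to it singly. The fold enrichment was higher in shALKBH5 cells in 8 and lower in 12 of these. Over all 23026 such matches the median log2 ratio of fold enrichments was -0.04, and from the 5th to the 95th percentile it ran from -1.26 to 1.26. The ABCA1 match, at a log2 ratio of 0.96, was at the 92.3rd percentile. Outside that range lay an NR1H3 5'UTR match at -1.29 and an NPC1 match at 1.36, listed as exonic in shALKBH5 and intronic in shCtrl cells, whose peaks had an FDR above 0.05 in both lists. The ends of matched peaks often differ, so the ratio compares caller values over unequal stretches.

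**Figure D4:**
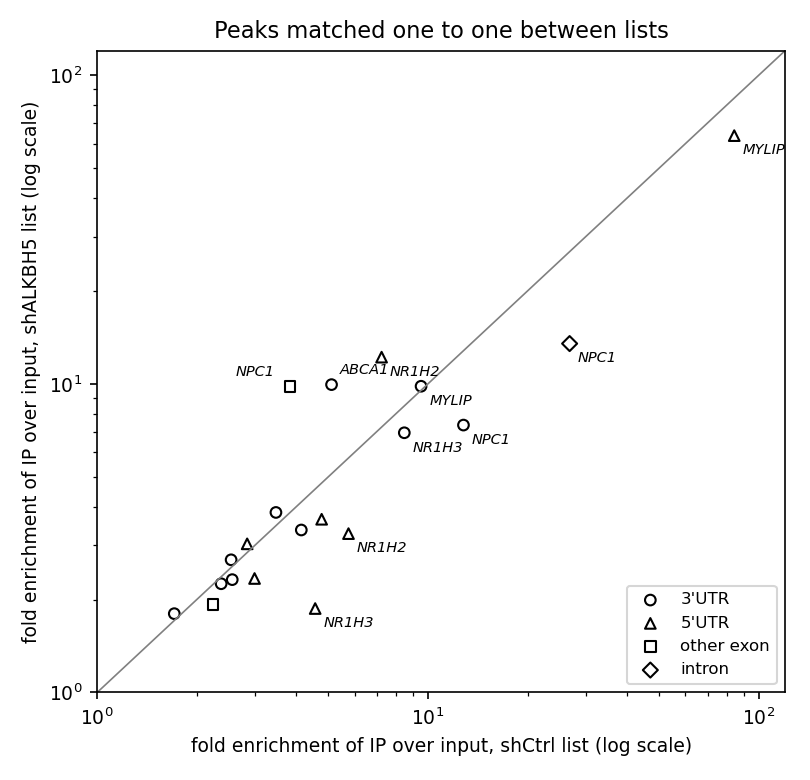
Fold enrichment of IP over input of the 20 matched peaks, shCtrl list on the horizontal and shALKBH5 list on the vertical log axis, with symbols for the annotated region and a line of equal values. Of the points, 8 lie above the line, among them ABCA1 at 9.94 against 5.11, and 12 below it.

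The authors' table that compares the peaks of the groups listed a position in 6 of the 10 genes, where 27.3% of the 19074 genes with a peak in either list had one. By annotation these were in a 3'UTR for ABCA1 (104783882 to 104785451), ABCG1 (42296199 to 42296498), MYLIP (16143184 to 16147026), GRAMD1A (35010539 to 35010599) and NPC1 (23528384 to 23529133). The NR1H3 position (47248822 to 47257629) was in the 5'UTR. Those of GRAMD1A and NPC1 lie 15872 and 22200 bp upstream of the gene's 3' end and are annotated to transcripts ENST00000424536 and ENST00000593280. The change values of that table were not used. Set beside expression, the genes with a listed position included those that rose (NR1H3, GRAMD1A and NPC1), ABCA1 and ABCG1 with opposite changes in the fit of all genes, and MYLIP, which did not pass. GRAMD1B, NPC2 and APOE, with the largest expression changes among the tested members, had none, nor had NR1H2.

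Related genes were described in 8 lists around these members, without a set test. Of 96 listed genes 63 reached the filter, and 39 of those (61.9%) passed the test, 20 higher and 19 lower, a share close to the 61.0% of all tested genes. The size of change of the low genes depended on the pseudocount. With 1 FPKM in place of 0.1 FPKM the log2 fold change was 1.69 for NCEH1, 0.80 for SORL1, -0.82 for VLDLR, -0.62 for NCOA1, -0.48 for both ABCA3 and STARD4, -0.40 for APOD and -0.18 for APOL6, in the direction given below for each. Of the receptor partners, 1 of 8 was higher and 2 lower. The coactivator NCOA1 fell from 1.64 ± 0.310 to 0.705 ± 0.107 FPKM (SD, n = 3 each, limma, adjusted p = 0.00103). RXRB had a log2 fold change of -0.16, with an adjusted p of 0.03484 from limma, and lost its call in 4 of the 6 fits that left out a library.

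Of the other LXR targets, 4 of 9 tested genes were higher and 1 lower, or 55.6% called beside 61.0% of all tested genes. Their median log2 fold change was 0.13, beside 0.09 for all tested genes. FASN, the fatty acid synthase, rose from 51.5 ± 1.2 to 73.9 ± 1.03 FPKM, and APOC1, an apolipoprotein encoded beside APOE, from 2.60 ± 0.166 FPKM to 3.4 ± 0.307 FPKM. SCD, which desaturates fatty acids, fell from 129 ± 7.80 to 74.1 ± 3.59 FPKM (SD, n = 3 each, limma, adjusted p = 2.055e-05). LXR targets among the members and in this list therefore stood on both sides of zero, with ABCA1, APOE and FASN higher and ABCG1 and SCD lower. Among the other ABCA and ABCG transporters 3 of 12 reached the filter, of which ABCA3 fell by 0.92 on the log2 scale (limma, adjusted p = 0.000774) and ABCA2 had a log2 fold change of -0.21 (adjusted p = 0.04739), lost in 5 of those 6 fits and at -0.14 without shALKBH5 replicate 2.

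**Figure D5:**
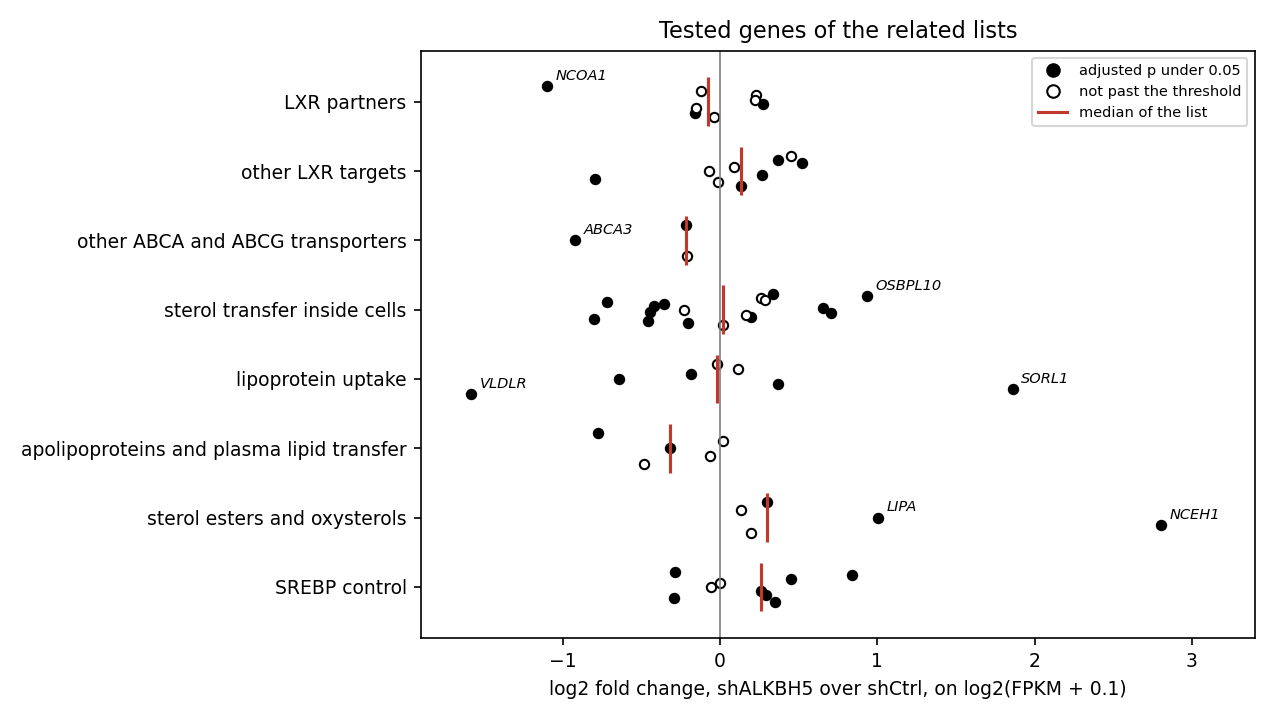
Log2 fold change, shALKBH5 over shCtrl, of the tested genes in the 8 related lists, with filled points for an adjusted p under 0.05 and a red bar at the median of each list. NCEH1 at 2.81 and SORL1 at 1.86 lie farthest to the right and VLDLR at -1.58 farthest to the left.

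The largest rise in the lists was that of NCEH1, a neutral cholesterol ester hydrolase. It was at 3.51, 3.96 and 3.50 FPKM in shALKBH5 and 0.376, 0.471 and 0.468 FPKM in shCtrl libraries. All shALKBH5 values were far above all shCtrl values, with an 8.34-fold ratio of means and a log2 fold change of 2.81 (standard error 0.117, limma, adjusted p = 1.866e-06). LIPA, the lysosomal acid lipase that frees the cholesterol that NPC2 and NPC1 then export, rose from 6.34 ± 0.436 to 12.8 ± 0.615 FPKM (SD, n = 3 each, limma, adjusted p = 1.53e-05). In this list 3 of 5 tested genes were higher and none lower, and the other 2 did not pass. That is 60.0% called, beside 61.0% of all tested genes.

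Sterol transfer genes were split, with 5 of 17 tested genes higher and 7 lower. OSBPL10, an oxysterol-binding protein relative, rose from 7.68 ± 0.619 to 14.7 ± 0.291 FPKM (limma, adjusted p = 2.043e-05), and SCARB2, a lysosomal membrane protein, by 0.71 on the log2 scale. STARD4 and OSBPL2, which both carry or bind sterol, fell by 0.80 and 0.72 on that scale. GRAMD1C, the third Aster gene, was at 0.0748 FPKM in shALKBH5 and 0.0971 FPKM in shCtrl cells, under the filter. In the fit of all genes its log2 fold change was -0.18 (limma without the filter, adjusted p = 0.4748).

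On the uptake side 2 of 7 tested genes were higher and 3 lower. VLDLR, a substrate of MYLIP at the protein level, fell from 1.58 ± 0.209 to 0.460 ± 0.0193 FPKM, LRP8 fell by 0.64 and SORL1 rose by 1.86 on the log2 scale. SCARB1, the receptor for high-density lipoprotein, rose from 17.2 ± 0.512 FPKM by 0.37 on the log2 scale. Of the apolipoprotein list 2 of 5 tested genes were lower, APOD by 0.78 on the log2 scale and APOL6, whose adjusted p of 0.04968 from limma was lost in 5 of those 6 fits. In the SREBP list, which senses low sterol, 5 of 9 genes were higher and 2 lower, with INSIG1 higher by 0.45 and SCAP lower by 0.29 on the log2 scale.

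The tested genes whose values across the 6 libraries were most like those of ABCA1, by the root mean square difference of centred log2 values, were ZNF469 (0.0911), DAAM2 (0.104), DUSP1 (0.105), ITPRIP (0.106) and MIDN (0.109). Their log2 fold changes lay between 1.41 (DAAM2) and 1.66 (MIDN), which the choice by likeness to ABCA1 largely fixed in advance. ZNF469 was at 1.45, 1.49 and 1.38 FPKM in shALKBH5 and 0.472, 0.414 and 0.406 FPKM in shCtrl libraries. The likeness was computed at the pseudocount of 0.1 FPKM and was not computed at others, where the log2 change of ABCA1 moved from 0.32 to 2.71 while that of DAAM2 lay at 1.25 and 1.43 and that of ZNF469 at 0.77 and 1.72.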

How the data were processed

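The 12 libraries of A375 cells, input and m6A IP, were grouped by their labels. Expression is FPKM for each input library, as deposited by the authors. Aligner, counter and annotation are not given in the sources used here. The labels list the genome build mm10, while gene positions in the file overlapped those of the same symbols in RefSeq GRCh38.p14 in 99.9% of 21699 genes. For each group the authors deposited a single peak list that gives every peak a fold enrichment (ratio of IP over input). The deposited lists also hold a log10 p and log10 FDR, treated as a score. The peak caller and the pooling of replicates are not given. A further table holds the authors' own peak comparison (log2 fold change, p and FDR), and the fold change and p-value columns of the expression table likewise. Only positions and regions were taken from the former.

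Low FPKM values showed no steps of whole reads, since no ratio of replicate 1 to replicate 2 recurred in more than 0.222% of them. The depth is therefore unknown, and precision is limited by 3 libraries per group. The log2(FPKM + 0.1) values of all genes averaging 0.5 FPKM or more entered a two-sided limma fit (version 3.58.1, R 4.3.3, eBayes with trend), whose p-values were adjusted by Benjamini-Hochberg over these genes. The fit was tested on simulated data. The count model named in the methods was not used, because the values are FPKM. Tables and figures were made in Python 3.11.15 (pandas 2.3.3, numpy 2.4.6, matplotlib 3.10.9, scipy 1.17.1). Peak starts count from 0 in the lists and were changed to count from 1. Besides the members and ALKBH5, the text names in each list up to 2 called genes that rose and 2 that fell most without overlap of the groups and with at least 1 FPKM in the higher group, and the 5 genes most like ABCA1. GRAMD1C, the overlapping genes and the ratios were chosen after their values were seen. Some genes that this rule names are not reported here. Members and lists were chosen with earlier results of these data known. Of the genes in the 8 related lists 6 had no row and were not analysed here. Rows were found for 7 of 8 melanocyte lineage, 3 of 5 keratinocyte and 3 of 6 leukocyte markers. As alternatives, the pseudocount was set to 1 or 0.01 and the filter was dropped or moved to 0.1 or 1 FPKM, with further fits after rescaling by the median ratio, with a replicate block, without trend and without each library. Peak overlap was repeated with stricter peaks, with a reciprocal overlap of 50% and without regard to strand. The fit without filter with each library left out was added after seeing the data.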

Additional observations from a re-analysis of the deposited data

How the results depend on the processing

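In every fit 6 or 7 members were higher, and of the 40 genes recomputed none changed direction in a fit that held it. ABCA1 and ABCG1, under the 0.5 FPKM filter, were held only by the fits without a filter or with one at 0.1 FPKM. Their changes at the other pseudocounts are differences of group means on the log2 scale, without a test. ABCA3, APOD, SORL1 and ZNF469 were not in the fit with the 1 FPKM filter, and the marker genes, GRAMD1C and RMC1 were not recomputed. The count of members that were lower was 1, and 2 with no filter or a filter at 0.1 FPKM, because ABCG1 was then tested. With each library left out it stayed at 1, and 6 members were higher. Without the filter and with each library left out, the adjusted p from limma ran from 0.006304 to 0.008753 for ABCA1 and from 0.02648 to 0.04702 for ABCG1. Shared peaks of the members went from 21 in the shALKBH5 and 22 in the shCtrl list to 11 and 11 with a reciprocal overlap of 50%. They were 14 of 17 and 14 of 18 for stricter peaks, enriched 2-fold or more and with an FDR no higher than 0.01, or 82.4% and 77.8%, beside 82.1% and 83.6% of all such peaks. Libraries of the same number did not deviate together (correlations of 0.02, -0.05 and 0.06), and with the replicate block 6 members were higher, 1 was lower and 32 list genes were called in place of 39, beside 4142 higher and 3129 lower of all tested genes in place of 4509 and 3408. The calls of RXRB, ABCA2 and APOL6 were lost under some alternatives, among them the replicate block with adjusted p-values from limma of 0.08929, 0.08953 and 0.1164, and the cause was not tested. Depth is unknown, which limits what can be said of ABCA1 and ABCG1.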

Other observations

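The m6A peaks of ALKBH5 itself were not part of any comparison above. In shCtrl cells its 5'UTR held 1 peak (chromosome 17, 18183078 to 18184652) with a fold enrichment of 7.66. In shALKBH5 cells 3 short peaks overlapped that stretch, of which 2 were annotated as 5'UTR (fold enrichment 1.93 and 2.09) and the other as exonic (1.65). Its 3'UTR held 2 peaks in each list, with fold enrichments of 1.79 and 2.12 in shALKBH5 and 1.79 and 1.85 in shCtrl cells. The input values stand above, and the lists have no values per library.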
